A study of Drosophila melanogaster with 3 samples.

Results

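Polycomb group genes were examined as places occupied by Sox15, a transcription factor of the Sox family, in prepupae of Drosophila melanogaster, just before the pupal stage. The 10 genes are ph-p, ph-d, Pc, Psc, Su(z)2, Sce, Scm, E(z), esc and pho, out of 13945 protein-coding genes on the 6 chromosome arms. They are a named list, chosen with earlier signal values of these data known, and all 10 were found in the Ensembl BDGP6 annotation. Each gene was given a window of its body plus 5 kb upstream. The chromatin immunoprecipitation and sequencing (ChIP-seq) libraries formed 1 group of 3 biological replicates of the Sox15-GFP strain. In this single transgenic line a Sox15-eGFP fusion, tagged at the C terminus, was immunoprecipitated from whole animals of unknown age, males and females pooled. The sample description names an antibody to GFP, while the antibody label reads Sox15. No wild type or untagged library was analysed here. Whole animals were used, so few cells with strong occupancy and many cells with weak occupancy cannot be told apart.

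Polycomb group proteins keep developmental genes such as the Hox genes silent through cell divisions. Polycomb repressive complex 2 (PRC2) methylates histone H3, and Polycomb repressive complex 1 (PRC1) binds that mark, ubiquitylates histone H2A and compacts chromatin. In flies, sequence-specific proteins such as Pho bring both complexes to DNA stretches called Polycomb response elements. Of the genes described here, ph-p, ph-d, Pc, Psc and Sce encode PRC1 subunits, and Su(z)2 encodes a relative of Psc. The genes E(z) and esc encode the methyltransferase of PRC2 and its WD-repeat partner. Scm encodes a SAM-domain protein that links to PRC1, and pho encodes the DNA-binding protein Pho.

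The ph genes are a tandem duplication on the X chromosome, both on the minus strand, and their upstream sequence showed where the copies differed. The first pair of sequences shows the place of the strongest ph-p summit and the corresponding place in ph-d. Letters come from the RefSeq Release 6 assembly, the build of the dm6 peak lists, and are written 5' to 3' on the minus strand. Capitals mark the stretch between the aligned blocks of the copies, with 49 bases of flank on each side. Blocks are runs of at least 30 aligned positions, joined over gaps under 30 bases.
ph-p, chrX:2137213-2137512, minus strand: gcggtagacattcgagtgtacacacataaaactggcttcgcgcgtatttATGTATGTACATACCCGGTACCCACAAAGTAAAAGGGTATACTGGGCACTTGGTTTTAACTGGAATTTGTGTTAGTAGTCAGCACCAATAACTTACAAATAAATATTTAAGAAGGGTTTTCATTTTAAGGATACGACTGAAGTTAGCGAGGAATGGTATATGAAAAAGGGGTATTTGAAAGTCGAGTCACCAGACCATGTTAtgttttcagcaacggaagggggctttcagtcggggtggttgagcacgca
ph-d, chrX:2123645-2123747, minus strand: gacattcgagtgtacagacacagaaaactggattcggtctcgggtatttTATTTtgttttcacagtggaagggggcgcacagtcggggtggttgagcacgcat

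The strongest ph-p summit (X, 2137325) lay inside the capitals of the first sequence. That stretch held 202 bases in ph-p (X, 2137262 to 2137463) and 5 bases in ph-d (X, 2123694 to 2123698), which aligned with 5 of the ph-p bases. The summit itself lay in a run of 94 ph-p bases with 0 opposite them in ph-d. On its downstream side, 562 aligned positions that include a start site of each gene were 93.4% identical. On its upstream side, 750 aligned positions were 84.9% identical. With stricter scoring, the aligned part on the downstream side ended 61 bp from the summit. The ph-p start site at 2136855 aligned base for base with the ph-d start site at 2123286. Further upstream, gaps shift the copies against each other, so that equal distances from these sites are not equivalent positions.

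The second pair shows sequence just upstream of the second strongest ph-p summit (X, 2137933) and its counterpart upstream of ph-d. Capitals mark bases identical in both copies, 83 of 96 aligned positions (86.5%).
ph-p, chrX:2137988-2138083, minus strand: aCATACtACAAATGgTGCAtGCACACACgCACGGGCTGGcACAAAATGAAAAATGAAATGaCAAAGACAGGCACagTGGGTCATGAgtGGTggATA
ph-d, chrX:2124293-2124388, minus strand: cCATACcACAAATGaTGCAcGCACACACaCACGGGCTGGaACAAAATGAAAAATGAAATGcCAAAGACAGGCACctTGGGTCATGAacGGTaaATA

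The next 3 sequences are the 201 bases centred on the strongest ph-d summit and on the summits at E(z) and pho, all on the minus strand. Capitals mark the Sox core ACAAT, the GAGA factor core GAGAG and the Pho core GCCAT, each sought on both strands.
ph-d, chrX:2123970-2124170, minus strand: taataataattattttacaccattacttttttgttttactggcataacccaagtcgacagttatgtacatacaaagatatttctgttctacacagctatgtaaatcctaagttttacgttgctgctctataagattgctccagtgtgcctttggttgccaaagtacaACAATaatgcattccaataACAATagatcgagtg
E(z), chr3L:10637989-10638189, minus strand: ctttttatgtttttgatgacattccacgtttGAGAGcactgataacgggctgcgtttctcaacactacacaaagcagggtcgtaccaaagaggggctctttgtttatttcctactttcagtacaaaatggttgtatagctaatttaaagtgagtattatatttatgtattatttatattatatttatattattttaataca
pho, chr4:1181859-1182059, minus strand: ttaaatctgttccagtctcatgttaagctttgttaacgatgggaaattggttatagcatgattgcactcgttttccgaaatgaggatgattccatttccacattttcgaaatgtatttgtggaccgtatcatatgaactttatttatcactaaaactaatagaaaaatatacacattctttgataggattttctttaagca

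The deposited peak lists held 19304, 19033 and 16102 peaks for replicates 1, 2 and 3, 14164 for the pooled replicates and 4555 for the reproducible set chosen by irreproducible discovery rate (IDR). The first 4 lists are relaxed and hold background as well as peaks. The IDR set was the 4555 pooled peaks of highest signal, with a minimum signal of 116.6. Signal is the authors' value for each peak, on a scale that is not stated, and is compared only within 1 list. To set replicates side by side, a signal was divided by the median signal of its own list, 29.2 in replicate 1, 17.1 in replicate 2 and 19.3 in replicate 3. These medians depend on how much background each list holds. Read counts were not analysed here, so the depth is unknown.

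Of the 10 genes, 6 had an IDR summit in their window: ph-p, ph-d, Psc, Su(z)2, E(z) and pho. Over all protein-coding genes the share was 32.8%, and over the 7431 genes whose window lengths fell within the range of the Polycomb genes it was 36.5%. Within 1000 bp of a start site, 4 of the 10 genes had an IDR summit, against 19.3% of all genes. The list was chosen with these values known, so nothing is read from the counts. All 10 genes had a summit in the relaxed pooled list, against 61% of all genes. For Pc, Sce, Scm and esc those summits were weak, with signals of 47.9 to 85.3.

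The windows held 13 IDR summits. By position, 7 of them lay within 500 bp of a start site of any gene, 3 in introns and 3 between genes. The window lengths summed to 129 kb, with the overlap of the ph-p and ph-d windows counted for both genes. This gave 1.01 summits per 10 kb, against 0.385 per 10 kb over the windows of all protein-coding genes, which were merged where they overlapped. The median of the strongest IDR signal per gene was 588.4 over the 6 genes, against 247.8 over the 4574 genes with any IDR summit. As with the counts, nothing is read from these contrasts, since the list was chosen with the signals known. Each of the 13 peaks had a −log10 q-value of 3.88, the highest in the pooled list. That shared maximum does not rank the peaks, since those with signals of 158.3 and 1994 had the same value.

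**Figure D1:**
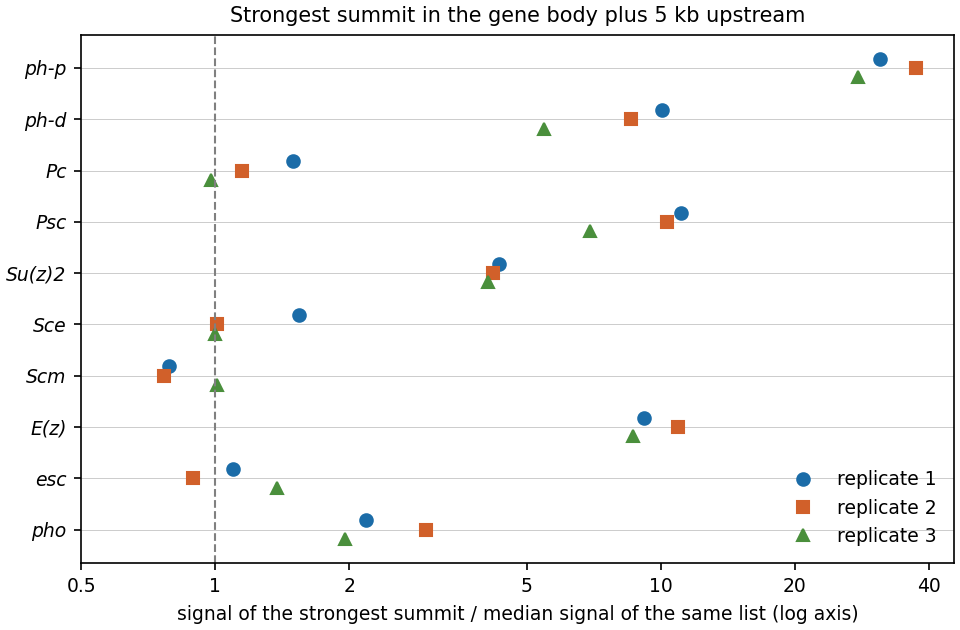
Strongest summit of each Polycomb gene in each of the 3 replicate lists, as the signal divided by the median signal of that list, on a log axis; the dashed line is the list median. The gene ph-p stands alone at 27.6 to 37.4, E(z), Psc and ph-d share a range of 5.46 to 11.1, and Pc, Sce, esc and Scm lie between 0.767 and 1.55. For Pc, Sce, esc and Scm the points of the replicates are not all from the same site.

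The strongest summit of each gene, taken in each replicate list by itself, fell into levels that the replicates shared. On the scale of signal over list median, ph-p reached 32.0 ± 4.97 (SD, n = 3). It was followed by E(z) with 9.58 ± 1.18, Psc with 9.44 ± 2.21 and ph-d with 8.05 ± 2.36, whose replicate ranges overlapped. Below these lay Su(z)2 with 4.21 ± 0.115 and pho with 2.37 ± 0.531, each with a range clear of its neighbours. The last 4 genes could not be placed in order, because their ranges overlapped: Pc with 1.21 ± 0.263, Sce with 1.18 ± 0.313, esc with 1.12 ± 0.244 and Scm with 0.855 ± 0.135. For these 4 genes the strongest summit was not at the same place in every replicate, so their means join different sites. At esc it lay at 11829387 and 11829372 in replicates 1 and 3, but at 11833022 in replicate 2. No test was run on this order, since the same values had entered the choice of genes. The replicates are labelled as separate biological samples of 1 strain.

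The gene ph-p, for a SAM-domain subunit of PRC1 (FBgn0004861, X, 2126210 to 2138371), had the most summits of the 10 genes. Its window held 5 IDR summits, and 3 or more were found in the windows of ph-p and ph-d alone among the 10 genes. Over all protein-coding genes, 3.99% had 3 or more and 1.01% had 5 or more. The 5 ph-p summits spanned 3476 bp, and the IDR set held 4 stretches of that length with as many summits, the others being nearest to psq, CG43389 and fng.

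The strongest ph-p peak (X, 2137189 to 2137527) had a pooled signal of 1994 and rank 21. Its signal was 905.3 in replicate 1, 641.4 in replicate 2 and 533.7 in replicate 3, at ranks 21, 10 and 16. All 3 replicates placed the summit within 14 bp of the pooled position. It lay 470 bp upstream of the start site at 2136855, within an intron of the longer transcript that starts at 2138371. Including ph-p, 45 protein-coding genes had a summit at least as strong in their window.

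The second ph-p peak (X, 2137712 to 2138060) had a pooled signal of 973.8 and rank 116. Its signal in replicates 1, 2 and 3 was 524.3, 276.7 and 225.3, at ranks 92, 117 and 120. It lay in the 5' UTR, 438 bp inside the transcript that starts at 2138371. Its highest replicate value, 18.0 list medians, was below the lowest of the strongest peak, 27.6.

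The other 3 ph-p summits lay further into the gene and were weaker. One, at 2136487 in the 5' UTR, had a signal of 158.3, the lowest of the 13, and ranks of 4542, 3033 and 1894 in replicates 1, 2 and 3. The summit at 2135377, in an intron 1245 bp inside the gene from the start site at 2136622, had a signal of 384.9 and ranks of 838, 922 and 954. The last, at 2134457, in an intron 2165 bp from that start site, had 286.0 and ranks of 1464, 1258 and 1287. Their ranks fell in the top 4555 of every replicate list, far below those of the peaks upstream. The window also held pooled summits of 74.3, at 2136707, and of 62.1, near the start site of the neighbouring gene D2hgdh. The nearest IDR summit further upstream of ph-p lay in an intron of Pgd, 2886 bp outside the window, with a signal of 179.7.

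The peaks with ranks most like those of the strongest ph-p peak were found by the summed difference in log2 rank over the 3 replicates. The nearest was an exon of a non-coding transcript within osa, a trithorax group gene for a subunit of the Brahma chromatin remodeller, 13947 bp from the nearest osa start site. Its ranks were 14, 11 and 15, and its summed difference was 0.816. The promoters of eIF6, Art3 and larp followed with differences of 0.865, 1.15 and 1.26, and an intron nearest to CG16753 had 1.33.

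The tandem copy of ph-p, ph-d (FBgn0004860, X, 2115727 to 2123286), had 3 IDR summits. Its strongest peak (X, 2123960 to 2124175) lay between ph-d and ph-p, 784 bp upstream of ph-d, with a pooled signal of 551.4 and rank 428. Replicates 1, 2 and 3 gave 294.5, 147.3 and 105.4, at ranks 375, 471 and 659. A second summit 200 bp away, at 2124270, had a pooled signal of 195.3, and its peak overlapped the first by 104 bp. Its signals were 129.6, 27.0 and 40.4 in replicates 1, 2 and 3, at ranks of 1600, 5418 and 2836, and it fell outside the top 4555 in replicate 2.

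The third ph-d summit, at 2122139, lay in an intron 347 bp upstream of the start site at 2121792. Its pooled signal was 222.2, and replicates 1, 2 and 3 gave 101.3, 67.4 and 48.5. One further pooled summit, at 2123074 in the 5' UTR, fell just below the IDR minimum with a signal of 105.4, the highest of any summit below it in the 10 windows. The weakest summits above it were those of 158.3 at ph-p and 161.8 at pho.

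The strongest summit of ph-p exceeded that of ph-d in each replicate. The ratio was 3.07 in replicate 1, 4.35 in replicate 2 and 5.06 in replicate 3, a mean log2 ratio of 2.03 ± 0.369 (SD, n = 3). All 3 ratios lay above 1. They compare the strongest summit of each copy, and these summits do not lie at aligned places. The strongest ph-d summit mapped 72 bp from the second ph-p summit. There ph-p had signals of 524.3, 276.7 and 225.3 in replicates 1, 2 and 3, against 294.5, 147.3 and 105.4 at the ph-d summit. The pair was chosen for this contrast, so no test is given; a sign-flip test over 3 replicates could not go below p = 0.25, even as an exact test. When only summits inside the gene bodies were counted, which leaves out the peaks upstream of ph-d, the mean log2 ratio was 3.29.

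Measured from the shared start site, the summits of the copies lay as follows. In ph-p, the strongest summit lay 470 bp and the second 1078 bp upstream of that site. In ph-d, summits lay 784 and 984 bp upstream. By the alignment, which allows for the gaps, the second ph-p summit mapped to position 2124223 of ph-d, 47 bp from the ph-d summit at 2124270. The strongest ph-d summit mapped to 2137861 in ph-p, 72 bp from the second ph-p summit. With the stricter scoring, the aligned part stopped 18 bp short of the strongest ph-d summit and 4 bp short of the second ph-p summit. No ph-d summit in the pooled list lay between 2123074 and 2124070, the interval with 5 bases in place of the 202 that hold the strongest ph-p summit.

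**Figure D2:**
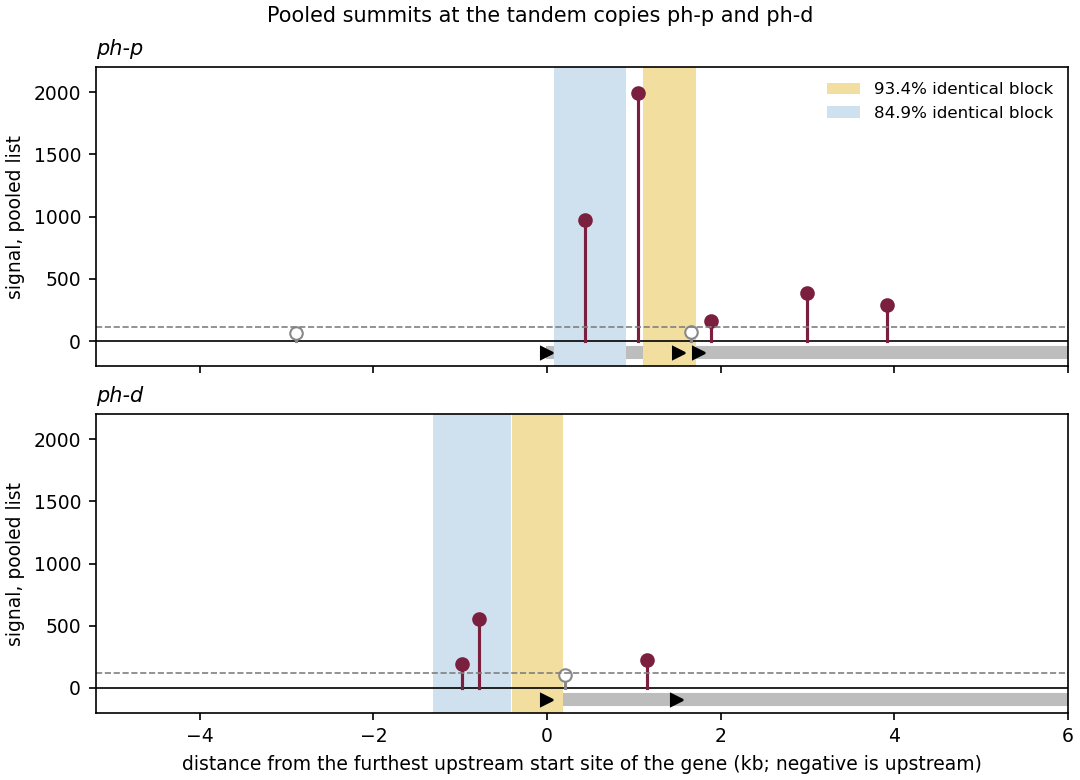
Signal of the pooled summits (vertical axis) at ph-p (upper panel) and ph-d (lower panel) by distance in kb from the furthest upstream start site of each gene; filled points are IDR summits, open points pooled summits below the IDR minimum of 116.6 (dashed line), grey bars the gene and arrowheads its start sites. Shading marks the aligned blocks of 93.4% and 84.9% identity, and the ph-p summit of 1994 lies in the gap between them, which is 202 bases wide in ph-p and 5 bases in ph-d.

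Sequence shared by the copies can affect where short reads are placed, so it was measured at the summits. Of all 36-base words in the ph-d gene, 32.5% also occurred in the ph-p window, and 92.5% of these started in coding sequence. In ph-p, 31.9% of the words occurred in the ph-d window. That share is too high as a measure of the copies, because the ph-d window reaches into the ph-p gene, from 2126210 to 2128286. Words there were matched to themselves. At the 13 IDR summits, no 36-base word within 100 bp of the summit occurred anywhere else in the assembly, and the same held for words of 50 and 100 bases. Read length and the treatment of repeated reads were not given in the labels or headers.

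The divergent pair Psc and Su(z)2, on arm 2R, showed a different arrangement. Psc (FBgn0005624, 12965997 to 12980994, minus strand) encodes a PRC1 subunit with a RING finger, and Su(z)2 (FBgn0265623, 12996501 to 13007911, plus strand) its relative. The interval between them is 15506 bp long and held 2 IDR summits. Neither gene had an IDR summit within 1000 bp of its own start sites.

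The strongest Psc peak (2R, 12985094 to 12985278) lay 4192 bp upstream of the gene, with a pooled signal of 646.7 and rank 315. It was also 181 bp from the start site of the non-coding RNA gene lncRNA:CR44339. Replicates 1, 2 and 3 gave signals of 323.8, 176.6 and 133.7, at ranks 314, 328 and 399. The replicate 2 peak was 91 bp wide and covered less than 50% of the pooled peak of 185 bp, though its summit lay 9 bp away. By the 50% rule, this made it the only IDR peak of the 13 without a match in all 3 replicates.

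The second Psc summit (2R, 12975594) lay in an intron, 5064 bp inside the gene. Its pooled signal was 476.4 at rank 602, and replicates 1, 2 and 3 gave 246.2, 124.5 and 111.4. At 7.15 ± 1.33 list medians (SD, n = 3), its range overlapped that of the upstream peak, although it was the lower of the pair in each replicate. The window also held 3 weak pooled summits with signals of 65.1 to 72.3.

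Su(z)2 had 1 IDR summit, at 2R, 12991646, with a pooled signal of 303.4 and rank 1278. It was intergenic, 4855 bp upstream of Su(z)2 and so just inside the limit of 5000 bp, and 2251 bp from the start site of CG33798, which lies between. The replicates gave 126.3, 72.0 and 79.1, at ranks 1653, 1591 and 1054. The pooled list held no other summit in the window.

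The strongest summit of Psc exceeded that of Su(z)2 by 2.56-fold in replicate 1, 2.45-fold in replicate 2 and 1.69-fold in replicate 3. The mean log2 ratio was 1.14 ± 0.330 (SD, n = 3), with no test for the reason given for the ph genes. Summed over all summits of each gene it was 2.20, since Psc had more summits. The genes of this pair shared no 36-base word, and the best local alignment of a summit region with the other gene's window covered 62 positions or fewer.

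**Figure D3:**
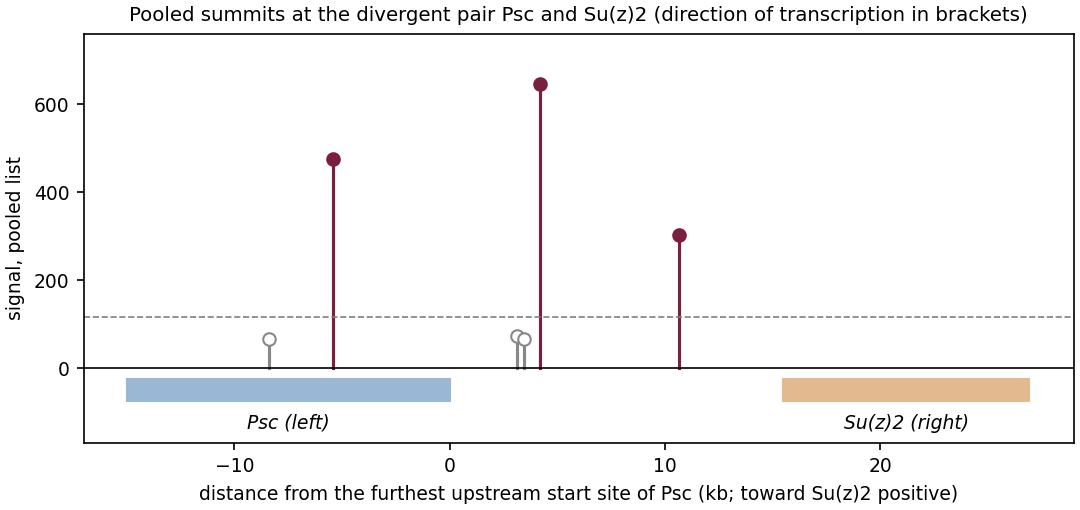
Signal of the pooled summits (vertical axis) at Psc and Su(z)2 by distance in kb from the furthest upstream Psc start site, with bars for the genes, filled points for IDR summits, open points for weaker pooled summits and the IDR minimum of 116.6 as a dashed line. The IDR summits of 476.4, 646.7 and 303.4 lie in a Psc intron, upstream of Psc and upstream of Su(z)2.

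**Figure D4:**
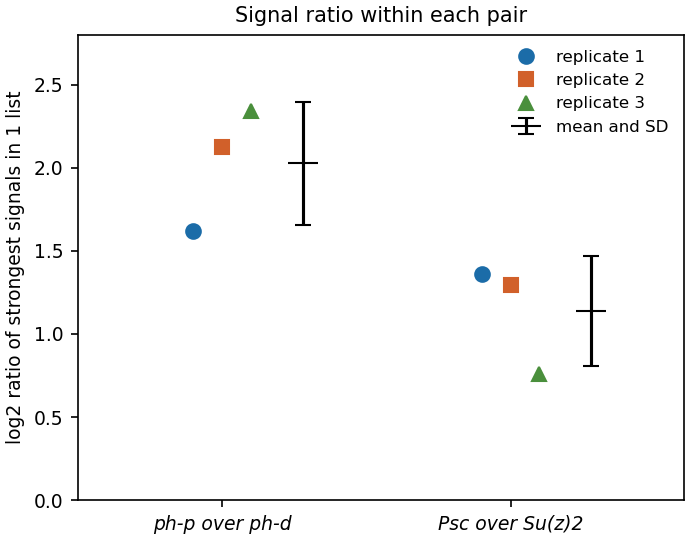
Log2 ratio of the strongest summit signals within each replicate list (points) for ph-p over ph-d and for Psc over Su(z)2, with the mean and SD (n = 3). The ratios lie between 1.62 and 2.34 for ph-p over ph-d and between 0.757 and 1.36 for Psc over Su(z)2.

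The remaining PRC1 genes had no IDR summit. Pc (FBgn0003042, 3L, 21306138 to 21318020) encodes the chromodomain protein that binds methylated histone H3. Its window held 1 pooled summit, with a signal of 85.3 at rank 6313, near the start of the neighbouring gene Rab26. Replicate 1 alone had a summit near the Pc start site, 91 bp upstream, with a signal of 20.7 and rank 16112. A strong IDR peak in the promoter of CG11309, with a signal of 833.6, lay 1570 bp beyond the 3' end of Pc and so outside the window.

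Sce (FBgn0003330, 3R, 27680431 to 27682029) encodes the RING-finger ubiquitin ligase of PRC1. It had 3 pooled summits, with signals of 58.4, 77.8 and 71.0, lying 2313, 3537 and 3785 bp upstream. The nearest protein-coding start site to each of them was that of CG12880. Scm (FBgn0003334, 3R, 9633359 to 9637611) had 1 pooled summit, the weakest of the 10 genes, with a signal of 47.9 at rank 13146. It lay 1365 bp upstream, in an intron of Dh44.

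Among the PRC2 genes, E(z) and esc differed. E(z) (FBgn0000629, 3L, 10634575 to 10638130) had 1 IDR peak (3L, 10638006 to 10638166), with a pooled signal of 625.3 and rank 335. Its summit lay in the 5' UTR, 41 bp from the E(z) start site and 57 bp from the start site of the oppositely oriented gene Cnep1r2. Replicates 1, 2 and 3 gave 267.3, 187.1 and 167.3, at ranks 454, 291 and 239.

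The gene esc (FBgn0000588, 2L, 11827204 to 11829405), which lies inside Pde1c, had no IDR summit. A weak pooled summit, with a signal of 78.6 at rank 6904, lay 10 bp from its start site. Replicates 1, 2 and 3 gave 32.0, 14.5 and 26.6 there, at ranks 8682, 12940 and 4786, and their summits lay within 23 bp of the pooled one. So a summit at the start site was listed in all 3 replicates, but at a level close to the list medians.

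The gene pho (FBgn0002521, 4, 1172469 to 1181628) had 1 IDR peak (4, 1181761 to 1182156), 331 bp upstream of its start site. Its pooled signal was 161.8 at rank 3078. Its replicate signals were 63.8, 50.9 and 37.8, at ranks 4127, 2580 and 3102. It was the weakest of the strongest summits among the 6 genes in the IDR set.

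How the weaker summits repeated was then counted. The 13 IDR summits were matched in the relaxed lists of all 3 replicates in 12 cases, and in the top 4555 peaks of all 3 in 11. Of the 12 pooled summits below the IDR minimum, 7 were matched in all 3 relaxed lists and 0 in the top 4555 of all 3. The sets were split at rank 4555 of a list pooled from these same replicates, so nothing is read from this contrast. A replicate peak could match 2 pooled summits, as 1 peak did at Psc in replicate 1 and 1 at ph-p in replicate 2. Replicate lists also held summits at these genes that overlapped no pooled peak, 9 of 35 in replicate 1, 7 of 30 in replicate 2 and 2 of 25 in replicate 3.

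Base composition and short patterns at the 13 IDR summits were compared with all 4555 IDR windows, each reaching 100 bp to either side, with no test. The GC content was 24.4 to 47.3% with a median of 33.3%, against a median of 33.8% over all windows. The Sox core ACAAT was found in 5 of the 13 windows, against 51.3% of all, and the longer AACAAT, which contains it, in 4, against 24.6%. The strongest ph-p window held neither on either strand, while the second ph-p window held 1 and the strongest ph-d window 2 of AACAAT. The ph-d matches are among the capitals shown above.

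Patterns of Polycomb response elements were also sought. The Pho core GCCAT was found in 3 of the 13 windows, against 23.4% of all, and the GAGA factor core GAGAG in 4, against 19.0%. The ph-p summit at 2134457, the Psc intron summit and the Su(z)2 summit held both, and the E(z) summit held GAGAG. The share of all windows holding both was not counted, so nothing is read from their joint presence. The letters GAAAA, a core of the HMG-box protein Dsp1, was found in 9 windows, against 74.8%. TATCGATA, the DNA replication-related element, and the E-box CACGTG were found in 0 windows, against 1.95% and 1.71%. Matches of different patterns were counted separately where they overlapped, and a match is not a measured site.

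Other genes of the Polycomb and trithorax groups were counted from lists of 41 symbols. An IDR summit lay in the window of 24 of them, against 32.8% of all genes, and within 1000 bp of a start site in 16, against 19.3%. Their median strongest signal was 358.6. Gene length was not matched: jing alone spans 119787 bp and held 9 IDR summits. No test was run.

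Genes of proteins that bind Polycomb response elements had a summit in 8 of 10 cases, against 32.8% of all genes. Among them psq, with 12 IDR summits, spans 59393 bp and grh, with 4, spans 41689 bp. The strongest were at Adf1 with a signal of 1957, in an intron, at phol, a relative of pho, with 1568, and at Trl, which encodes GAGA factor, with 1471 in an intron. The phol summit lay in the promoter of the neighbouring gene CG3552, 1519 bp upstream of phol. Of the trithorax group, whose products counteract Polycomb silencing, 7 of 14 had a summit, against the same share of all genes. These were led by osa with 2223, brm, the Brahma ATPase gene, with 976.5 in its promoter, and the histone methyltransferase gene trx with 919.6 in an intron.

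The other lists hold few genes, and their counts stand beside the same 32.8% of all genes. Of 6 other PRC2 genes 3 had a summit. These were jing with 502.0 in an intron, the core subunit gene Su(z)12 with 288.8 in its promoter, and escl, a relative of esc, with 133.8 in the promoter of CG6686. Of 4 other genes listed with PRC1 and its variants, not all of them for subunits, the histone demethylase gene Kdm2 had 374.2 in an intron. The gene lolal had 242.2 in its promoter. Of 7 other Polycomb group genes, including those of the histone H2A deubiquitinase, 4 had a summit. The strongest were at mxc with 178.8, corto with 158.8 and calypso with 143.2. Those at mxc and calypso were nearer to the start sites of Larp7 and CG42837.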

How the data were processed

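Sox15-eGFP ChIP-seq peak lists of 3 replicates were used in dm6 coordinates. The authors deposited a signal and a −log10 q-value for each peak and a summit offset; the lists were derived from alignments and a control file, per the accompanying listing. No header or label names the aligner or peak caller. Lists in dm3 coordinates were not used. Peak positions were made 1-based. Genes came from Ensembl release 115 (BDGP6) and sequence from RefSeq Release 6, whose arm lengths hold every peak. A summit belonged to each gene whose body plus 5 kb upstream held it. A replicate peak matched a pooled peak when it covered at least 50% of it. Local alignments (Biopython) scored 2 for a match, with penalties for mismatch, gap opening and extension of 3, 5 and 2 for single summits and of 2, 6 and 0.2 for the upstream regions of the ph genes. Aligned blocks were joined over gaps under 30 bases. The genes and lists were chosen with earlier results of these data known; the alignment of the ph copies was added after the summits had been seen. All 10 genes are named. From each other list the 3 strongest genes are named, and the 5 peaks nearest in rank to the strongest ph-p peak. Alternatives changed the upstream length, start-site distance, peak threshold, overlap and replicates. Window counting and peak matching were tested on simulated data. Python 3.11.15 and pandas 2.3.3 were used. No test was run, since 1 group was measured and the rule used the signals.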

Additional observations from a re-analysis of the deposited data

How the results depend on the processing

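The count of genes with an IDR summit in the window was 6 and stayed between 4 and 6 with other upstream lengths, the stronger IDR peaks alone or whole peaks. Requiring each IDR peak to have a counterpart among the top 4555 of every replicate left it at 6 with 1 bp or 50% overlap. With 90% overlap it fell to 3, and the count within 1000 bp of a start site fell to 1, against 4. The median peak width was 384, 360 and 364 bp in replicates 1, 2 and 3, against 396 bp in the pooled list. At E(z) the replicate 2 peak was 96 bp wide and could not cover 90% of the pooled peak of 161 bp. The cause of the fall over all the genes was not tested. Leaving out each replicate gave 6 to 6 and 4 to 4, but the IDR list still came from all 3 replicates and was not remade. The counts were already 6 and 4 with all 3 required at 50% overlap. Dropping a replicate could not lower them, so nothing is read from this. The count with a pooled summit, 10, was 5 with no upstream sequence, and 6 with 1 kb. At the IDR minimum signal it was 6, which restates the IDR count, since those pooled peaks are the IDR set. The mean log2 ratio of ph-p over ph-d was 1.87 to 2.23 without 1 replicate and 3.29 for gene bodies alone. For Psc over Su(z)2 it was 1.03 to 1.33 without 1 replicate and 2.20 for summed signal. For that pair, ratios from gene bodies alone or within 1000 bp of a start site could not be computed in every replicate. No paired analysis was possible because the series has 1 group, so that no groups share replicate numbers; the gene ratios were taken within each replicate. The unknown depth limits what can be said of the weak summits at Pc, Sce, Scm and esc.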
